A study of Mus musculus with 25 samples.

Results

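The nuclear-encoded subunits of respiratory complexes II, III and IV and of ATP synthase (complex V) were examined in the gastrocnemius, the large calf muscle, of mice given thymol or vehicle. Members were the genes of the expression table named Sdha, Sdhb, Sdhc, Sdhd, Cyc1 or Cycs, or with a symbol that begins with Uqcr, Cox4 to Cox8 or Atp5. This rule went by gene name only, was set with earlier results of these data known, and found 45 of the 8829 genes in the table. Of these, 4 encode complex II, 9 complex III, 13 complex IV and 16 complex V. The remaining 3 are Cycs (cytochrome c, the soluble electron carrier), Cox7a2l (a factor of respiratory supercomplexes) and Atp5if1 (the inhibitor protein of ATP synthase), and they are kept apart from the means of the complexes.

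All 25 mice were male SAMP8, an inbred line with accelerated senescence, aged 8 months at the start. Control mice (n = 11) received corn oil as vehicle, and thymol mice (n = 14) were given thymol in the same oil at 20 mg/kg per dosing day. Both were dosed by oral gavage for 3 months, on most but not all days of each week. There was no group of a strain with normal aging, so the comparison is of thymol with vehicle within SAMP8. Mice are named by their group and label number. QuantSeq 3′ mRNA sequencing reads the 3′ end of polyadenylated transcripts, so levels of different genes can be set side by side without a correction for transcript length. Values are log2 CPM, the log2 of reads scaled to a common library size after TMM scaling. Between 4463818 and 9463418 reads per library were recovered from these values (group medians 7554333 for control and 7479077 for thymol). The members took 1.36% to 2.03% of the reads. All 11 markers of skeletal muscle fibres that were listed had a row in the table.

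Complex II, succinate dehydrogenase, passes electrons from succinate to ubiquinone. Complex III passes them from ubiquinol to cytochrome c, and complex IV passes them from cytochrome c to oxygen. Complexes III and IV pump protons across the inner mitochondrial membrane, and ATP synthase uses the return of those protons to make ATP. Complex II is encoded wholly in the nucleus, whereas complexes III, IV and V also hold subunits made from the mitochondrial genome. Heart and skeletal muscle use muscle isoforms of some complex IV subunits (Cox6a2, Cox7a1 and Cox8b in the mouse) in addition to, or in place of, the ubiquitous isoforms (Cox6a1, Cox7a2 and Cox8a).

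No subunit was called as different between thymol and control mice. In limma on all 8829 genes, 0 of the 45 members had an adjusted p under 0.05, as did 0% of all genes (Benjamini-Hochberg over all genes). An unadjusted p under 0.05 was found for 0 members and for 3.53% of all genes (312 genes). The mean was higher in thymol mice for 33 members and lower for 12, with differences from -0.15 to 0.20 log2 CPM. The median difference was 0.036 over the members and -0.0014 over all genes, of which 49.6% had a higher mean in thymol mice. The adjusted p was 0.9999 (limma) for each member. For 42 members the 95% interval of the difference lay within 0.5 log2 units of 0 on either side, and the exceptions were Cox5b, Atp5mc2 and Atp5mg. The plot of the differences shows intervals that cross 0 for every member. Without Control 14, the mouse with the highest subunit levels, 4 members (Cox4i1, Cox6c, Cox8b and Uqcr10) had an unadjusted p under 0.05, beside 3.94% of all genes, and still none had an adjusted p under 0.05 (limma).

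**Figure D1:**
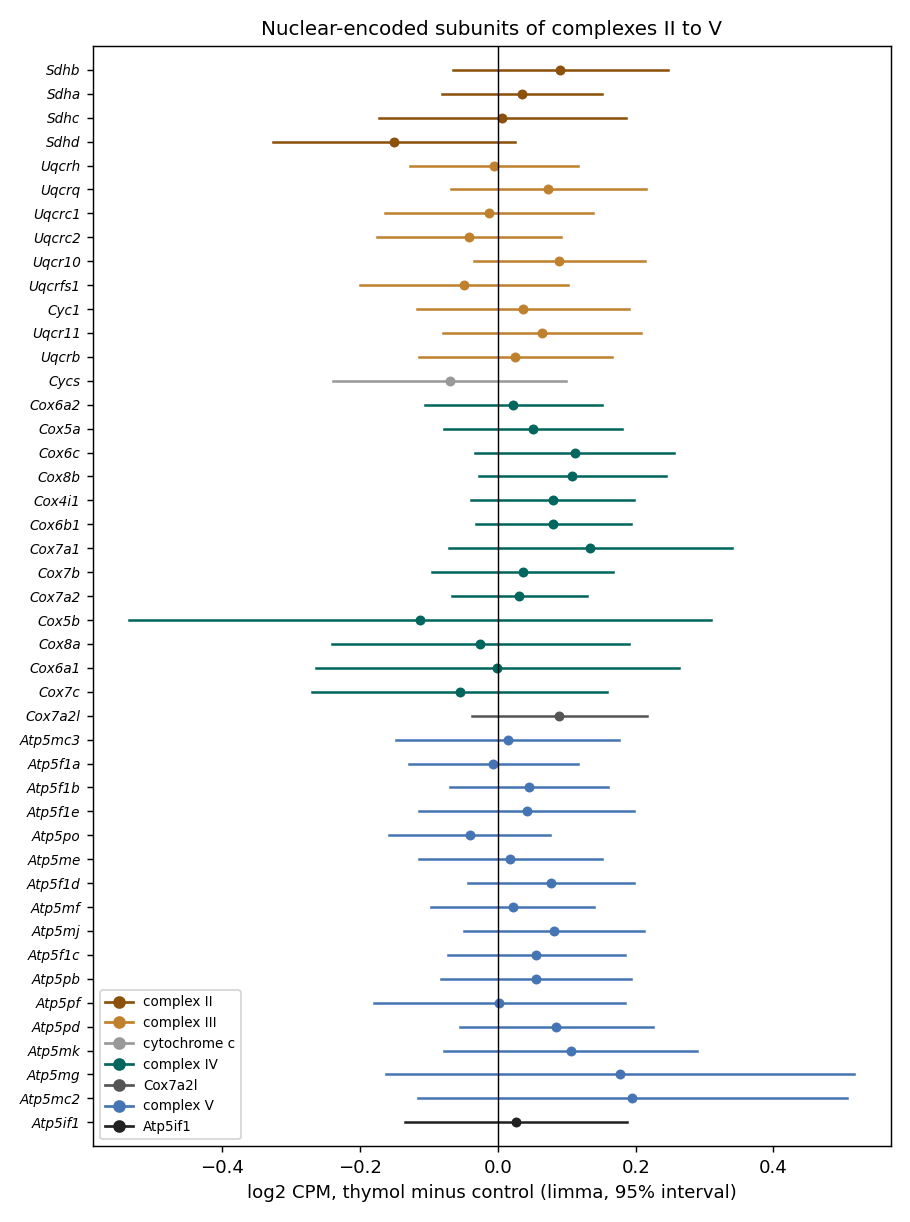
Difference in log2 CPM between thymol (14 mice) and control (11 mice) for each of the 45 members, ordered by complex and by mean level. Points are limma estimates and lines are 95% intervals, all of which cross 0.

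In complex II, Sdhd had the smallest unadjusted p of all 45 members. Sdhd encodes a membrane anchor subunit. Its level was 5.72 (Control 19), 6.15 and 6.499 (Control 14) log2 CPM as the lowest, median and highest control mouse, and 5.64, 6.07 and 6.16 in thymol mice. The ranges overlapped, and 2 of 14 thymol mice lay above the control median. The difference was -0.15 ± 0.086 (SE; unadjusted p = 0.0887, limma, two-sided). Without Control 19 the difference of Sdhd was -0.19 (unadjusted p = 0.0317, limma) and without Control 14 it was -0.11. The other 3 subunits had a higher mean in thymol mice. Sdhb, the iron-sulfur subunit, ranged from 8.72 to 9.64 log2 CPM in control mice around a median of 9.21, and from 8.95 to 9.68 around 9.28 in thymol mice. This Sdhb difference was 0.091 ± 0.077 (unadjusted p = 0.246). Sdha, the flavoprotein that oxidises succinate, differed by 0.035 ± 0.057, and Sdhc, the other membrane anchor, by 0.0063 ± 0.088. The direction of Sdhc turned with 10 of the 25 mice left out singly. The mean of the 4 genes in each mouse, relative to all mice, was 0.0026 ± 0.18 (SD) over the 11 control mice and -0.0021 ± 0.16 (SD) over the 14 thymol mice.

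Complex III held 5 members with a higher and 4 with a lower mean in thymol mice. Uqcr10, an accessory subunit, had the smallest unadjusted p of the complex. Its lowest, median and highest level was 8.03, 8.34 and 8.76 log2 CPM in control mice and 8.20, 8.43 and 8.63 in thymol mice, so that all thymol mice lay inside the control range. The difference of Uqcr10 was 0.089 ± 0.061 (unadjusted p = 0.154, limma), and that of Uqcrq, another accessory subunit, was 0.073 ± 0.070 (unadjusted p = 0.300). The subunits that carry the redox centres encoded in the nucleus showed smaller differences. Cyc1, cytochrome c1, differed by 0.036 ± 0.076, and Uqcrfs1, the Rieske iron-sulfur protein, by -0.049 ± 0.074. The core proteins Uqcrc1 and Uqcrc2 differed by -0.013 ± 0.074 and -0.042 ± 0.065. Mean levels ran from 6.75 log2 CPM for Uqcrb to 8.98 for Uqcrh, the hinge protein, and these 2 genes differed by 0.026 ± 0.069 and -0.0055 ± 0.060 between groups. Cycs was expressed at 5.64 to 6.43 log2 CPM in control mice (median 6.13) and at 5.78 to 6.57 in thymol mice (median 6.02), a difference of -0.070 ± 0.083 (unadjusted p = 0.403).

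Among the 13 complex IV genes, 9 had a higher mean in thymol mice. Cox8b, the muscle isoform of subunit 8, had the smallest unadjusted p in this complex. Its lowest, median and highest level was 8.47, 8.92 and 9.41 log2 CPM in control mice and 8.89, 9.03 and 9.22 in thymol mice. The lowest control mouse for Cox8b was Control 19 and the highest Control 14, and all thymol mice lay between them. The difference of Cox8b was 0.11 ± 0.066 (unadjusted p = 0.114, limma). Without Control 14 it was 0.16 (unadjusted p = 0.0105, limma), and without Control 19 it was 0.062. Cox6c, an accessory subunit, differed by 0.11 ± 0.071 (unadjusted p = 0.126, limma). Cox4i1 and Cox6b1, each the only measured gene of its subunit, were at 8.95 and 8.87 log2 CPM on average and both differed by 0.080, with SEs of 0.058 and 0.055. Genes named Cox4i2 and Cox6b2 were not analysed here. Levels within the complex spanned 10.9 log2 CPM for Cox6a2 to 3.75 for Cox7c, and Cox7c differed by -0.055 ± 0.10. Cox7a2l, which promotes the pairing of complexes III and IV, was at 5.18 to 5.49 log2 CPM in control mice (median 5.34) and 5.04 to 5.57 in thymol mice (median 5.48). Its difference was 0.089 ± 0.062 (unadjusted p = 0.161). Thymol mice lay on both sides of the control range for Cox7a2l, 8 of 14 being outside it.

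For ATP synthase, 14 of 16 members had a higher mean in thymol mice and 0 had an unadjusted p under 0.05. The smallest unadjusted p belonged to Atp5f1d, the delta subunit of the F1 head. Its lowest, median and highest level was 8.17, 8.51 and 8.78 log2 CPM in control mice and 8.34, 8.55 and 8.67 in thymol mice, with no thymol mouse outside the control range. The difference of Atp5f1d was 0.077 ± 0.059 (unadjusted p = 0.204, limma). The c-ring, the rotating part of the membrane sector, is encoded by separate genes for 1 mature protein. Atp5mc3 was the most abundant ATP synthase transcript at 10.2 log2 CPM and differed by 0.014 ± 0.079. Atp5mc2 was the least abundant at 2.36 log2 CPM, with 17 to 58 reads per mouse, and ranged from 1.73 to 2.68 in control mice (median 2.10) and from 1.64 to 3.06 in thymol mice (median 2.47). This difference of 0.20 ± 0.15 (unadjusted p = 0.211) was the largest among the members. A gene named Atp5mc1 was not analysed here. Atp5if1, which blocks reverse ATP hydrolysis, was at 4.84 to 5.53 log2 CPM in control and 4.89 to 5.43 in thymol mice and differed by 0.026 ± 0.079.

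Averaged by complex within each mouse, the groups overlapped throughout, as the plot of complex levels by mouse shows. The thymol minus control difference in mean log2 CPM was -0.0047 ± 0.068 (SE) for complex II, 0.020 ± 0.060 for complex III, 0.035 ± 0.050 for complex IV and 0.058 ± 0.053 for complex V. For complexes IV and V, 12 and 11 of the 14 thymol mice were above the control median, against 8 for complex II and 7 for complex III. Each gene weighs alike in these means. Complex V includes Atp5mc2 and Atp5mg, which had few reads and uncertain levels, with differences of 0.20 and 0.18. With summed CPM instead, the difference of complex V was 0.025. Complex IV includes Cox5b, which was far higher in 3 mice than in the others. With the median over members, the difference of complex IV was 0.090. These means were not tested. Leaving out 1 mouse at a time moved them from -0.037 to 0.030 for complex II, from -0.018 to 0.049 for complex III, from 0.018 to 0.067 for complex IV and from 0.031 to 0.090 for complex V. The extremes came from leaving out Control 19, Control 32 or Control 14. In bulk muscle, fewer muscle fibres in a sample and less subunit RNA per fibre cannot be told apart.

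**Figure D2:**
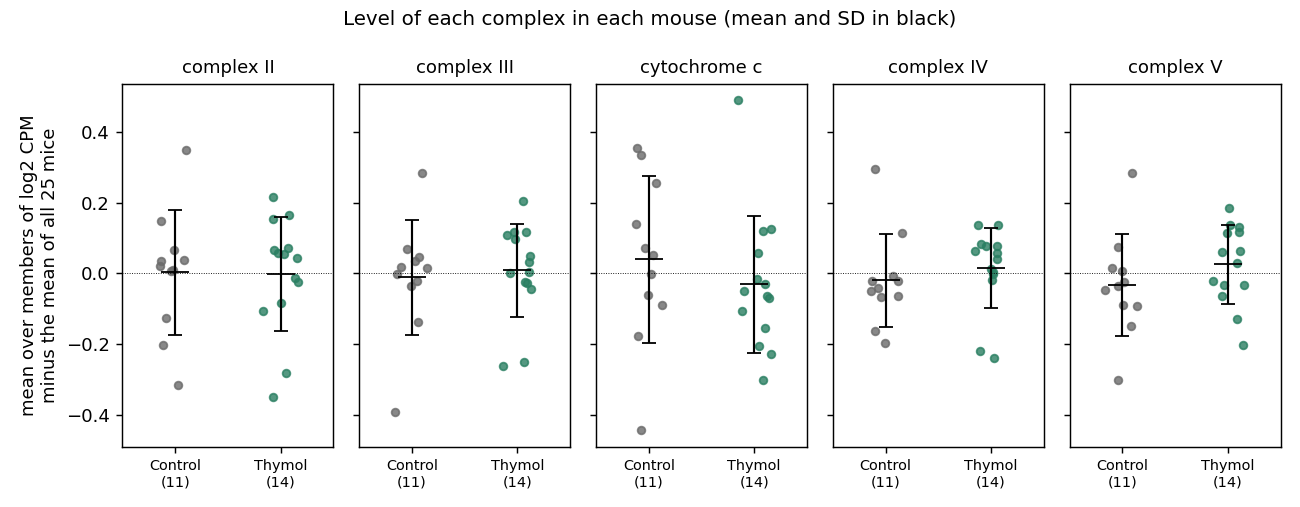
Mean over the members of each complex of log2 CPM, relative to the mean of all 25 mice, for control (11) and thymol (14) mice; each point is a mouse and black bars are the mean and SD. The groups overlap in every panel, and Control 14 is the highest control mouse for complexes II, III, IV and V.

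Other genes of the respiratory chain showed the same lack of calls. Of 40 nuclear subunits of complex I, 32 had a higher mean in thymol mice, 0 had an adjusted p under 0.05 (limma) and 1 had an unadjusted p under 0.05. That gene was Ndufb7, an accessory subunit, at 7.63 to 8.09 log2 CPM in control mice (median 7.81) and 7.75 to 8.04 in thymol mice (median 7.94), a difference of 0.11 ± 0.048 (unadjusted p = 0.0310). Ndufb2, another accessory subunit, differed by 0.12 ± 0.065. Of 7 measured subunits of the mitochondrial genome, 3 had a higher mean in thymol mice, and none had an unadjusted p under 0.05. The smallest p values were those of mt-Nd6, at -0.11 ± 0.085, and mt-Nd2, at -0.065 ± 0.10, both subunits of complex I. Of 37 measured assembly factors of complexes II to V, 26 had a higher mean and 0 had an unadjusted p under 0.05. Cmc2, a factor for complex IV, differed by 0.15 ± 0.082, and Lyrm7, which helps insert the Rieske protein, by 0.30 ± 0.18. Among 5 genes taken as markers of mitochondrial content, Tomm20, an import receptor, differed by -0.14 ± 0.13 and Slc25a4, the ADP/ATP carrier of muscle, by 0.061 ± 0.055. The remaining 3 were Cs, Vdac1 and Vdac2.

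The subunits varied together from mouse to mouse. Control 14 held the highest level of 22 of the 45 members and Control 19 the lowest level of 21, while Thymol 28 held the lowest level of 10. Control 19 also had the largest summed level of adipocyte markers (2116 CPM), and Control 14 the largest sum of endothelial markers (205 CPM). Fits of the members on both sums are given further below. Whether cell content accounts for the subunit levels of these mice was not tested. Across the 25 mice the mean of complex II followed that of complex III with Pearson's r = 0.92 and Spearman's rho = 0.80, and complex III followed complex V with r = 0.88 and rho = 0.74. The other pairs among complexes II, III, IV and V had r from 0.79 to 0.81. Without the 2 mice farthest from the median these 6 correlations ran from 0.68 to 0.89. They are descriptions over mice whose values come from the same libraries, so that library composition is shared by both sides. Taken singly, 37 of 45 members had r above 0.5 with the mean of the other subunits, and 313 of 8784 genes outside the set (3.56%) did. Cycs stood apart, with r from 0.25 to 0.44 against the complexes and rho from -0.036 to 0.18.

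**Figure D3:**
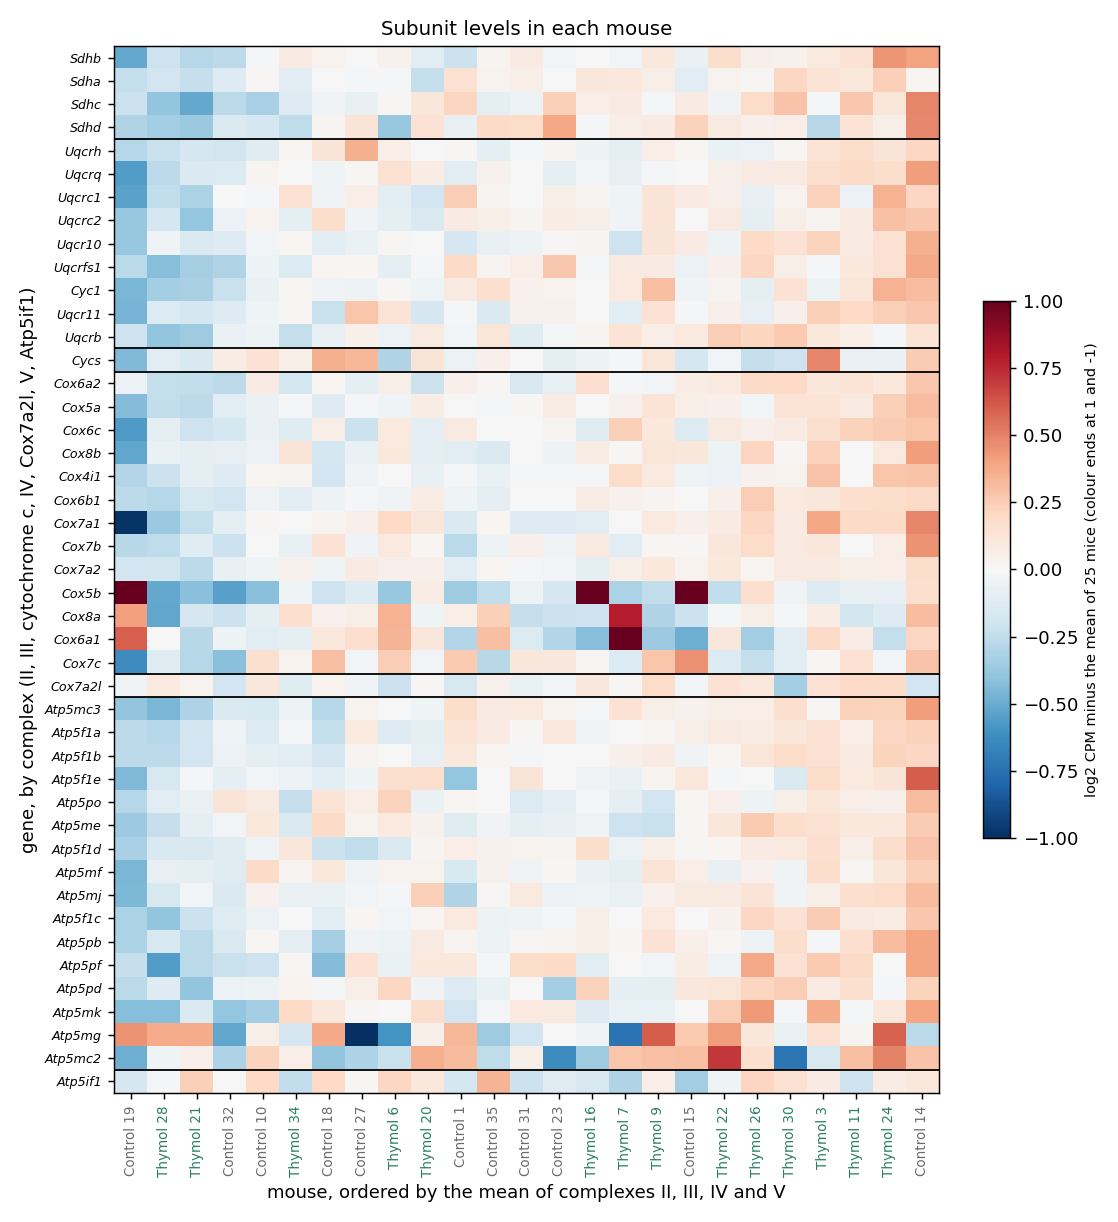
Level of each of the 45 members in each mouse, as log2 CPM minus the mean of 25 mice, with mice ordered from the lowest (Control 19) to the highest (Control 14) mean of complexes II, III, IV and V. Most rows follow the order of the mice, whereas Cox5b, Cox6a1, Cox8a, Cox7a2l, Atp5mg and Atp5if1 do not. Mice of both groups lie toward both ends of the order, and thymol mice hold ranks 19 to 24 counted from the lowest.

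Subunits of the mitochondrial genome moved with their nuclear partners in the same libraries. The level of mt-Cytb, the mitochondrial-genome subunit of complex III, had r = 0.68 (rho = 0.56) with the nuclear mean of that complex, and r = 0.49 without Control 19 and Thymol 28. The level of mt-Co1, the catalytic subunit of complex IV, had r = 0.67 (rho = 0.56) with its nuclear mean, and r = 0.55 without the same mice. Reads of mitochondrial-genome genes were at most 33.9% of a library.

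Among the 45 members, 6 had r below 0.2 with the mean of the other subunits, namely Cox6a1, Atp5mg, Cox5b, Atp5if1, Cox7a2l and Cox8a. Cox5b, a subunit of complex IV singled out here after its values were seen, was at 6.53 to 7.01 log2 CPM in Control 19, Thymol 16 and Control 15, and at 4.91 to 5.61 in the other 22 mice. The 3 high mice were from both groups, and the difference between groups was -0.11 ± 0.21. Cox5b lies on chromosome 1 from 36691449 to 36693681 (GRCm38, GENCODE M21). Of the 31-base words in the last 300 bases of its transcripts, 27.2% also occur in transcripts of other genes. The same measure was over 50% for 5 members, namely Atp5mg (72.2%), Atp5pd (69.4%), Cox7c (66.8%), Atp5mc2 (58.1%) and Atp5po (56.3%), for which processed pseudogenes or near copies can share reads, and 0% for 22. Levels of these 5 genes are therefore uncertain. The counting strand was not given in the sources used here, and 16 members overlap a gene on the opposite strand, Cox6a2 (with Itgad), Cox6c (with Vps13b) and Cox4i1 (with Emc8) among them.

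The muscle isoform exceeded the ubiquitous isoform by a wide margin for subunits 6a and 8 and by little for subunit 7a. In every mouse Cox6a2 was above Cox6a1. The difference between them was 4.85, 5.48 and 6.06 log2 units as the lowest, median and highest control mouse, and 4.46, 5.50 and 6.09 in thymol mice. The median ratio of reads of Cox6a2 to Cox6a1 was 44.8, with a range of 22.1 to 68.8. For Cox8b over Cox8a the difference was 2.68, 3.64 and 3.93 log2 units in control mice and 2.83, 3.72 and 4.05 in thymol mice, and the median ratio of reads was 12.8. For Cox7a1 over Cox7a2 it was -0.45, 0.32 and 0.65 in control mice and 0.15, 0.35 and 0.63 in thymol mice, with a median ratio of 1.26. The lowest of the 3 differences among control mice belonged each time to Control 19, in which alone Cox7a1 (7.54 log2 CPM) was below Cox7a2 (7.98). Cox7a1 was at 8.15 log2 CPM or more in all thymol mice, and it differed by 0.13 ± 0.10 between groups (unadjusted p = 0.191, limma), with 0.044 when Control 19 was left out.

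**Figure D4:**
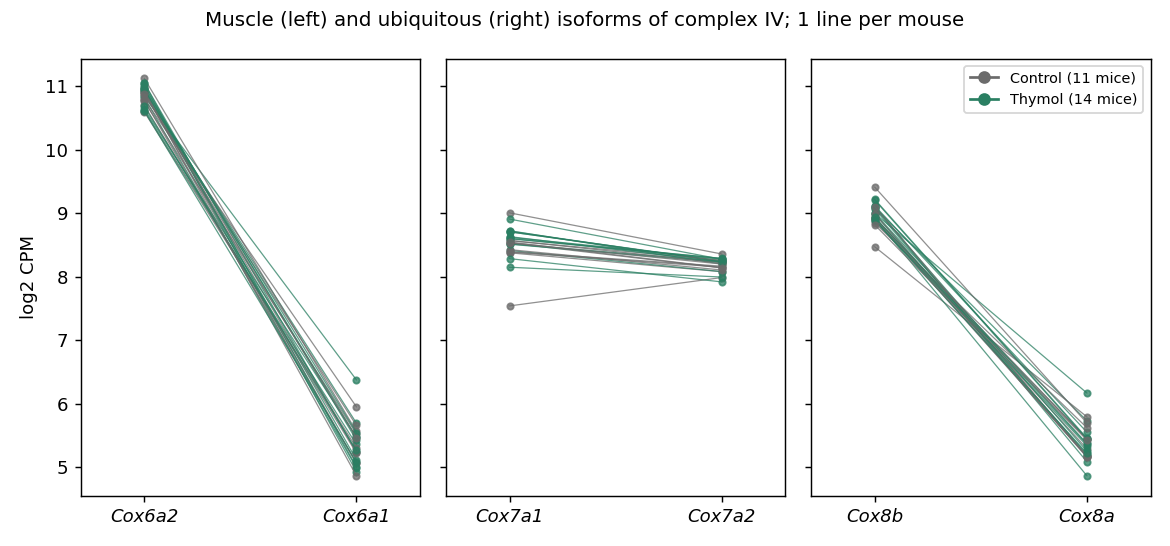
Log2 CPM of the muscle isoform (left in each panel) and the ubiquitous isoform (right) of complex IV subunits 6a, 7a and 8, with 1 line for each of 11 control and 14 thymol mice. Lines fall steeply for 6a and 8 in every mouse, are nearly level for 7a, and rise only in Control 19.

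Thymol minus control, the isoform difference within a mouse was 0.023 ± 0.15 (SE) for Cox6a2 minus Cox6a1, 0.10 ± 0.086 for Cox7a1 minus Cox7a2 and 0.13 ± 0.13 for Cox8b minus Cox8a. These are descriptions with no test. Without Control 19 they were -0.041, 0.030 and 0.048. The isoforms of subunit 7a varied together across the 25 mice (r = 0.80, rho = 0.79, and r = 0.80 without Control 19 and Control 14). Between the isoforms of 6a, r was -0.052 and rho -0.080, with r = -0.14 without Control 32 and Thymol 21. Between those of subunit 8, r was -0.032 and rho 0.041, with r = 0.074 without Control 19 and Control 14. Cox7a2 itself differed by 0.031 ± 0.048 between groups, Cox6a2 by 0.022 ± 0.063, Cox8a by -0.026 ± 0.11 and Cox6a1 by -0.0011 ± 0.13. For Cox6a2, Cox8a and Cox6a1 the sign of that difference turned under at least 1 other scaling or weighting of the libraries. For the c-ring genes measured, the read ratio of Atp5mc3 to Atp5mc2 had a median of 235. That ratio is uncertain, since Atp5mc2 had few reads and 58.1% of the words at its transcript ends occur in other genes.

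Promoter windows of Cox6a1, Cox8a and Cox8b are shown because the isoforms of subunits 6a and 8 had correlations near 0 with each other across the mice; a window of Cox6a2 was not analysed here. RefSeq windows from 250 bases before to 50 bases after the start (GRCm38.p6) were at hand for 35 of the 45 members. The following lines give the 250 bases before the start for Cox6a1 (chr5:115348959-115349208, minus strand), Cox8a (chr19:7217617-7217866, minus strand) and Cox8b (chr7:140900447-140900696, minus strand), 5′ to 3′. Capitals mark matches, on either strand, to the motifs named after them.
Cox6a1: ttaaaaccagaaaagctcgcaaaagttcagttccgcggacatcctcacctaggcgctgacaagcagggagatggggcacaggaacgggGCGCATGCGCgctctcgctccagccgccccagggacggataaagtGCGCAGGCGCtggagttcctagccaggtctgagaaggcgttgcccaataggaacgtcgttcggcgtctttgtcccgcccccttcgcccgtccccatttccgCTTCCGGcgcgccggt
Cox8a: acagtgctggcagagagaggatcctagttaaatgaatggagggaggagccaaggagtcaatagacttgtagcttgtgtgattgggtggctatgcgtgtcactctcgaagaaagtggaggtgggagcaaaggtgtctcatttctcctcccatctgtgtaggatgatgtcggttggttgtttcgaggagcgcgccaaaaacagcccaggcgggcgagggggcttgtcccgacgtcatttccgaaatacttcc
Cox8b: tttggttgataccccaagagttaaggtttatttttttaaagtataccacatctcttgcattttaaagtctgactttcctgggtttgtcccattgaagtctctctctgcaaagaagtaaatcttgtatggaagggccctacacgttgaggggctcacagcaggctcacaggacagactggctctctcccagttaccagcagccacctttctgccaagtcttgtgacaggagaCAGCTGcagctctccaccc

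The capitals in Cox6a1 are 2 matches to the NRF1 motif and 1 to the ETS motif of GABP (CCGGAAG, read on the opposite strand). The 250 bases of Cox8a held none of the motifs searched, and its ETS match lay in the 50 bases after the start, which are not shown. The capitals in Cox8b are the E-box CAGCTG bound by myogenic factors. In the muscle isoform Cox7a1 and the ubiquitous Cox7a2, not printed, the 250 bases before the start held none of the motifs. NRF1 and GABP are nuclear activators of many respiratory chain genes. Over the whole 300 bases, the NRF1 motif was found in 11 of 35 members (31.4%), 5.19% of 27025 genes with a window and 12.74% of the 7049 of these that were in the table under the same symbol. The ETS motif was found in 13 members (37.1%), 9.93% of all and 21.52% of the measured genes. The site of estrogen-related receptors (AAGGTCA) was found in 6 members (17.1%), 5.38% of all and 3.63% of measured genes. The YY1 motif (AAGATGGCG) was found in 2 members (5.7%), 1.64% and 4.16%. The MEF2 motif was found in 1 member (2.9%), 4.23% and 4.0%. The E-box was found in 3 members (8.6%), 18.29% and 18.16%. Both strands were searched for each motif. Sdhd, the member with the smallest p for treatment, held an NRF1, an ETS and an estrogen-related receptor match in its window.

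To see whether isoforms followed fibre type, levels were fitted against the myosin heavy chains Myh7 (slow fibres), Myh2 (fast oxidative IIa fibres) and Myh4 (fast glycolytic IIb fibres), with treatment as a covariate. Cox6a2 was the only member that passed for Myh2. Its level was 10.6, 10.9 and 11.1 log2 CPM as the lowest, median and highest control mouse, and 10.6, 10.9 and 11.1 in thymol mice. It increased by 0.18 ± 0.045 (SE) per log2 unit of Myh2 (adjusted p = 0.0256, limma; 1.89% of all genes called). Pearson's r was 0.69 (permutation p = 9e-05, adjusted 0.0016) and rho 0.72 (permutation p = 9e-05, adjusted 0.00288; n = 25), and r was 0.67 without Thymol 20 and Thymol 11. The adjusted p (limma) rose to between 0.0572 and 0.0734 without Control 14, Thymol 28 or Thymol 30, and to 0.345 after quantile normalization. In all, 14 members had a positive slope on Myh2 at an unadjusted p under 0.05, beside 5.85% of all genes, and none had a negative one.

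No complex IV isoform passed for Myh7, the slow myosin, for which 0 members were called beside 0.827% of all genes (limma). The level of Myh7 ran from 1.68 log2 CPM in Thymol 20 to 10.1 in Thymol 6, with 5.64 as the next lowest. Cox6a2 had the only unadjusted p under 0.05 among the members, beside 9.4% of all genes. Its r was 0.46 (permutation p = 0.0159, adjusted 0.0848) and its rho 0.45 (permutation p = 0.0243, adjusted 0.098; n = 25), with r = 0.52 without Thymol 20 and Thymol 3. The fit for Myh4 called 1 member, beside 3.05% of all genes. This was Atp5po, the stalk subunit OSCP, named here after its values were seen. Its level is uncertain, since 56.3% of the words at its transcript ends occur in other genes. Atp5po was at 8.46 (Control 19), 8.77 and 9.06 (Control 14) log2 CPM as the lowest, median and highest control mouse, and at 8.52, 8.72 and 8.97 in thymol mice. It decreased by 0.38 ± 0.091 log2 units per log2 unit of Myh4 (adjusted p = 0.0179, limma). Its adjusted p (limma) was 0.110 without Control 14, 0.0629 without Thymol 6, 0.0717 after median centring and 0.142 after quantile normalization. In all, 11 members had a negative slope on Myh4 at an unadjusted p under 0.05, beside 7.22% of all genes, and none had a positive one. Among the isoforms, Cox6a2 had r = -0.57 with Myh4 (permutation p = 0.00269, adjusted 0.0215) and rho = -0.55 (permutation p = 0.00483, adjusted 0.0515; n = 25), with r = -0.48 without Control 14 and Thymol 6. Cox8a had r = -0.53 (permutation p = 0.00655, adjusted 0.0419) and rho = -0.52 (permutation p = 0.00947, adjusted 0.0723; n = 25), with r = -0.43 without the same mice. In the fit across all genes neither passed, with adjusted p of 0.0774 for Cox6a2 and 0.0956 for Cox8a (limma). With Myh2, 5 members were shared (Atp5pd, Atp5po, Cox6a2, Cox6c and Uqcrq). The levels of Atp5pd and Atp5po are uncertain because of shared sequence. The fits for Myh2 and Myh4 use the same 25 libraries and are not independent of each other.

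The ubiquitous isoforms Cox6a1 and Cox8a, whose promoter windows are printed above, were highest in the mice with the most adipocyte transcripts. Cox6a1 was at 4.86, 5.30 and 5.95 log2 CPM as the lowest, median and highest control mouse, and at 4.93, 5.31 and 6.37 in thymol mice. The highest mice were Thymol 7 and Control 19. Cox8a was at 5.16, 5.43 and 5.79 in control and 4.86, 5.35 and 6.17 in thymol mice, and the highest were again Control 19 and Thymol 7. The summed level of 6 adipocyte markers (Adipoq, Plin1, Cfd, Fabp4, Retn and Cidec; Lep was not analysed here) ran from 205 to 2116 CPM in control mice (median 379) and from 196 to 1939 CPM in thymol mice (median 448). Control 19 and Thymol 7 held the largest sums of their groups. All 6 markers had at least 2 reads in every mouse.

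The fit and the correlations on the adipocyte sum were added after values were seen, so their p values are descriptive. Cox6a1 increased by 0.26 ± 0.054 log2 units per log2 unit of the adipocyte sum (adjusted p = 0.00711, limma), the only member called beside 0.725% of all genes. At an unadjusted p under 0.05 there were 8 members, beside 8.56% of all genes. Of these members, 2 had a positive slope (Cox6a1 and Cox8a) and 6 a negative one. Of the 8823 genes tested, 447 had a positive and 308 a negative slope at that threshold. For Cox6a1, r was 0.70 (permutation p = 0.0001, adjusted 0.0016) and rho 0.58 (permutation p = 0.0025, adjusted 0.04; n = 25). Without Control 19 and Thymol 7, r was 0.43, the slope 0.15 and the adjusted p 0.354 (limma), so the call rests on these mice. Without Thymol 7 alone the adjusted p of Cox6a1 was 0.132 (limma). For Cox8a the slope was 0.18 ± 0.048 (adjusted p = 0.0769, limma), with r = 0.62 (permutation p = 0.00097, adjusted 0.0103), rho = 0.50 (permutation p = 0.0113, adjusted 0.0723; n = 25), and r = 0.32 without the same mice. Cox7a2, the ubiquitous isoform of subunit 7a, did not share the positive slope (-0.015 ± 0.027, r = -0.13, rho = -0.047). Slopes of the muscle isoforms on the adipocyte sum were -0.030 ± 0.035 for Cox6a2, -0.099 ± 0.053 for Cox7a1 and -0.083 ± 0.034 for Cox8b. A test of these slopes against those of the ubiquitous isoforms was not run, and the part of adipocyte RNA in the levels of Cox6a1 and Cox8a was not tested. The relations of isoforms with the myosins and the adipocyte sum were 32 in all, and the permutation p values were adjusted over them (Benjamini-Hochberg).

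**Figure D5:**
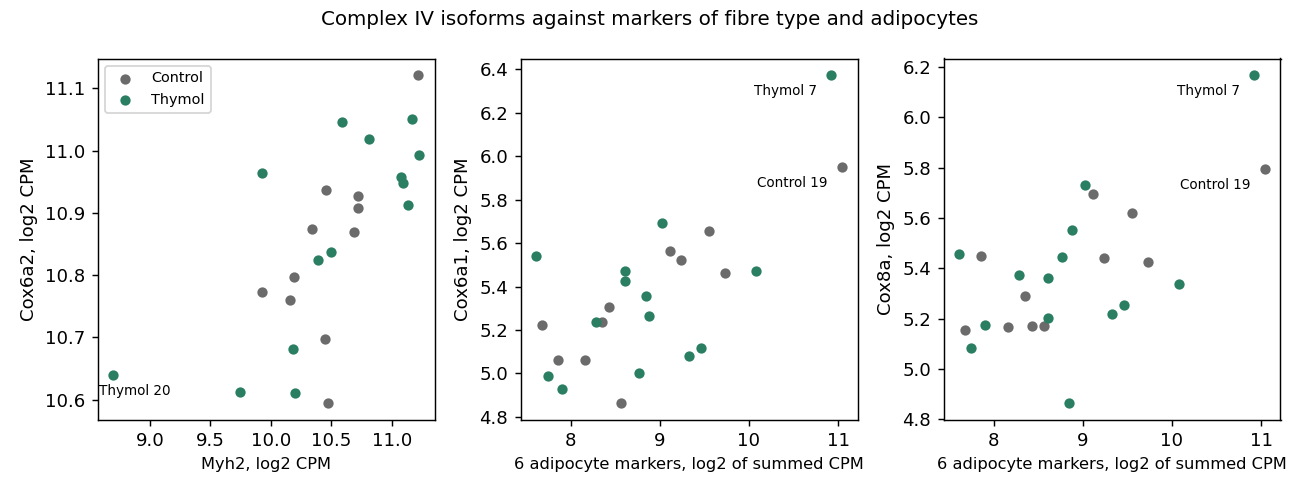
Log2 CPM of Cox6a2 against Myh2 (left), and of Cox6a1 (middle) and Cox8a (right) against the log2 of the summed CPM of 6 adipocyte markers, for 11 control and 14 thymol mice. Cox6a2 increases with Myh2 in mice of both groups, while Cox6a1 and Cox8a are highest in Thymol 7 and Control 19, which have the largest adipocyte sums.

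The fits on summed markers of the remaining cell types were also added after values were seen. That on leukocyte markers called 1 member beside 3.64% of all genes. At an unadjusted p under 0.05 it gave 14 members, 13 of them with a negative slope, beside 17.5% of all genes. Of the 8823 genes tested, 873 had a positive and 667 a negative slope at that threshold. The member called was Atp5pf, the stalk subunit F6, named here after its values were seen. It was at 6.77, 7.27 and 7.59 log2 CPM as the lowest, median and highest control mouse, and at 6.64, 7.19 and 7.58 in thymol mice. It decreased by 0.23 ± 0.064 log2 units per log2 unit of the sum (adjusted p = 0.0414, limma). The sum of the 6 measured of 8 leukocyte markers ran from 66.3 to 352 CPM in control and from 74.1 to 246 CPM in thymol mice, and Ptprc and Adgre1 were not analysed here. Leaving out any 1 of 9 of the 25 mice (Control 10, Control 14, Control 27, Thymol 28, Thymol 30, Control 31, Thymol 21, Thymol 3 or Control 18) ended that call, with adjusted p up to 0.240 (limma). The fits on endothelial (0.0453% of all genes called), smooth muscle and pericyte (0.102%), fibroblast (3.39%) and nerve and Schwann cell markers (0%) called 0 members by limma. At an unadjusted p under 0.05 these fits gave 8 members beside 9.69% of all genes, 0 beside 6.75%, 3 beside 15.6% and 1 beside 5.29%, in that order. The 8 for the endothelial sum all had a positive slope. On that sum 40 of the 45 members had a positive slope, with a median slope of 0.21 over members and -0.0062 over all genes. The summed adipocyte level differed by -0.021 ± 0.38 log2 units between thymol and control mice and that of muscle fibre markers by 0.019 ± 0.043, with overlapping ranges.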

How the data were processed

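RNA from gastrocnemius of 11 control and 14 thymol mice was sequenced with QuantSeq 3′ FWD libraries (75 ng RNA, 20 PCR cycles). Per the submitters' processing notes and the study's methods, the authors mapped reads to GRCm38 with STAR 2.5.3, counted them with HTSeq 0.6.1, removed genes with few reads and scaled libraries by TMM. The deposited table holds log2 CPM for 8829 genes and 25 mice, with 2 reads added in a library of mean size. Reads were recovered from the steps between values, and 100% were whole within 0.05 reads; they cover counting error only, because PCR copies are included.

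Groups came from the sample labels. Genes were tested on the deposited log2 values with limma 3.58.1 (R 4.3.3, empirical Bayes with trend, two-sided, Benjamini-Hochberg over all genes, threshold 0.05), tested on simulated data. Slopes on myosins and on summed cell type markers were fitted with treatment as a covariate. Correlations used 100000 two-sided permutations (numpy 2.4.6). Means by complex and isoform differences are descriptions. Positions are from GENCODE M21 and promoter windows from RefSeq (GRCm38.p6).

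Members and gene lists were chosen with earlier results of these data known, and the fits on cell type markers were added after values were seen. Named genes were the isoform genes, Cox7a2l, Atp5if1, the complex II genes, Cyc1, Cycs, Uqcrfs1, Uqcrc1, Uqcrc2, the 2 smallest p and the highest and lowest level in each complex, and the 2 smallest p in each pathway list; others are said to be singled out. The alternatives were other scalings, filters and weights, voom, a block for the first label number, library number, and each mouse left out.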

Additional observations from a re-analysis of the deposited data

How the results depend on the processing

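With the alternatives run, 0 members had an adjusted p under 0.05 for treatment (limma) under every one of them, and the count at an unadjusted p under 0.05 was 0 except with 1 mouse left out, where it ran from 0 to 4 (4 without Control 14, and 1 each without Control 19, Thymol 28 or Thymol 30). The planned edgeR count test on recovered reads was not run, and voom on those reads was run instead. Means by complex and isoform differences moved by less than 1 SD between mice under each alternative run for them, but several of these small differences moved by over 1.5 times. With the median over members, the difference was 0.090 for complex IV and turned to 0.021 for complex II. With summed CPM it was 0.048 for complex II, 0.057 for complex IV and 0.025 for complex V. Without mitochondrial-genome reads it was -0.015 for complex II and 0.010 for complex III, and after quantile normalization -0.015 for complex II. After median centring the difference of complex II was -0.0019. Calls for Myh7 stayed at 0 members. For Myh2 the number of called members was 0 after quantile normalization, 2 without mitochondrial-genome reads (Sdha and Cox6a2) and 2 without the 2 mice farthest from the median (Atp5mc3 and Cox6a2), and ran from 0 to 3 with 1 mouse left out. For Myh4 it was 0 after quantile normalization, 0 after median centring, 6 without mitochondrial-genome reads, 0 without the 2 farthest mice, and 0 to 2 with 1 mouse left out. For the adipocyte markers it was 2 without mitochondrial-genome reads (Cox6a1 and Cox8a), 0 without the 2 farthest mice and 0 to 2 with 1 mouse left out. For the leukocyte markers it was 0 after quantile normalization, 4 after median centring, 0 without mitochondrial-genome reads, 0 without the 2 farthest mice and 0 to 3 with 1 mouse left out. The shares of all genes called under these alternatives are not given beside the counts. Without those shares, the counts cannot show whether the members differ from other genes. The cause of these moves was not tested.

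Of 36 named genes, 10 turned direction under some setting, each with a value no larger than 0.058 in size. With 1 mouse left out the differences of these genes ran from -0.0066 to 0.062 for Atp5if1, -0.024 to 0.057 for Atp5mc3, -0.080 to 0.058 for Cox6a1, -0.0025 to 0.050 for Cox6a2, -0.087 to 0.014 for Cox8a, -0.0076 to 0.069 for Cyc1, -0.026 to 0.056 for Sdhc, -0.067 to 0.011 for Uqcrc1 and -0.035 to 0.029 for Uqcrh. After quantile normalization, values were 0.0045 for Cox6a1, -0.040 for Cox6a2 and 0.0078 for mt-Nd2. Cox6a1 was at 0.00174 after median centring, 0.020 with sample weights, 0.0011 by voom, 0.00168 with the first label number as a block and 0.000339 with library number. Sdhc was at -0.0035 without mitochondrial-genome reads, and Cox8a at 0.00066 and Uqcrh at 0.0061 with sample weights. No paired analysis was possible because the label number that names a mouse belongs to 1 mouse only. The labels also carry a first number of unstated meaning, 7 values of which occur in both groups; as a block (correlation -0.036) it gave 0 members, adjusted or not.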
